A study of Mus musculus with 11 samples.

Results

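The chaperone genes described here are 47 mouse genes of protein folding, chosen by name as a list in which 25 belong to the endoplasmic reticulum (ER) and 22 to the cytosol or the mitochondria. They were read from the probe sets whose annotated gene symbol is exactly one of the 47 names. Of the 47 genes 44 were measured, out of 12393 genes on the array, and 104 of the 22690 probe sets belonged to them. The measured genes were 17 of 18 ER folding genes, 7 of 7 ER stress sensors and genes of ER-associated degradation (ERAD), 11 of 13 cytosolic heat shock genes, 6 of 6 subunits of the CCT chaperonin and 3 of 3 mitochondrial chaperones. Fkbp10, Hsp90ab1 and Hsf1 were not analysed here. Each gene is given by its brightest probe set, and 32 of the 44 genes had further probe sets.

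JB6 is a mouse cell line derived from epidermis that forms colonies in soft agar only when it is stimulated, and RT101 is its tumour variant, which forms them without stimulation. The study asked which transcripts change with anchorage-independent growth that can be reversed (JB6 clone 41-5A with basic fibroblast growth factor, bFGF) and that cannot (RT101). The 4 groups were RT101 colonies (3 arrays, no treatment, harvested on day 7), RT101 monolayer (2 arrays), bFGF-JB6 colonies (3 arrays, 10 ng/ml bFGF, harvested on day 7) and bFGF-JB6 monolayer (3 arrays, bFGF-treated, with no dose or time stated). The labels give 1 serum-containing culture medium for all samples, each line is 1 clone or variant, and there was no untreated JB6 group, so line and bFGF cannot be told apart. Total RNA of each sample went to 1 Affymetrix array, and values are log2 signals, so that a difference of 1 is a 2-fold change. Whether replicates are separate cultures is not stated, so each p-value rests on a spread among these samples that could be technical.

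Newly made secretory and membrane proteins fold in the ER with the help of the Hsp70 chaperone BiP (Hspa5), its DnaJ-type partners, the lectins calnexin and calreticulin, and the protein disulfide isomerases. When unfolded proteins build up there, the sensors IRE1 (Ern1), ATF6 and PERK raise the transcription of these helpers and of the ERAD genes, which return misfolded proteins to the cytosol for destruction, in what is called the unfolded protein response. Cytosolic heat shock proteins are driven by another factor, HSF1, the CCT ring folds actin and tubulin, and mitochondria hold an Hsp70 and a chaperonin of their own.

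Array medians lay between 5.82 and 5.95, replicates of a group correlated at 0.989 to 0.998 over all probe sets, while pairs from different groups gave 0.9345 to 0.9828. The Gapdh control signal of the 3′ end exceeded that of the 5′ end by 0.19 on bFGF-JB6 monolayer array 1 and by 0.35 on bFGF-JB6 colonies array 3, and by -0.08 to -0.01 on the other arrays. Of 12 keratinocyte markers 6, among them Krt14, Trp63 and Cdh1, lay at or below the highest lower quartile of any array (3.99) on every array and so gave no signal clearly above the floor, although the cells are of epidermal origin. Macrophage, endothelial and fibroblast markers lay there in 4 of 9, 5 of 7 and 2 of 11 genes. Of all 12 keratinocyte markers 2 rose and 1 fell in bFGF-JB6 colonies (Krt10 by 0.54, Krt1 by 0.36 and Itga6 by -1.78). In RT101 colonies 0 rose and 1 fell (Itga6 by -0.61). The called shares were 25.0% and 8.3%, against 29.4% and 32.4% of all genes. The mean of the 9 macrophage markers was 4.08 to 4.16 in RT101 colonies against 4.07 in the RT101 monolayer, and 4.71 to 4.84 in bFGF-JB6 colonies against 4.33 to 4.43 in the bFGF-JB6 monolayer. Of the 9 genes 3 rose in bFGF-JB6 colonies (Cd68 by 1.86, Csf1r by 0.92 and Lyz2 by 0.36) and 2 in RT101 colonies (Lyz2 by 0.62 and Cd14 by 0.33), and 0 fell in either. The called shares were 33.3% in bFGF-JB6 colonies, near the 29.4% of all genes, and 22.2% in RT101 colonies, below the 32.4% of all genes. The mean of 11 fibroblast markers was 9.19 to 9.28 in RT101 colonies against 7.82 to 7.90 in the RT101 monolayer, and 8.99 to 9.09 in bFGF-JB6 colonies against 8.45 to 8.59 in the bFGF-JB6 monolayer. Of these 11 genes 7 rose and 0 fell in RT101 colonies, and 6 rose and 1 fell in bFGF-JB6 colonies (63.6% called in each). The rises were uneven, with Dpt (5.54), Pdgfrb (3.07) and Col3a1 (2.84) the largest in RT101 colonies, where Vim, Col1a2, Thy1 and Lum were not called. In bFGF-JB6 colonies the largest were Dpt (3.48) and Fn1 (0.92), and Vim fell (-0.29). The mean of the fibroblast list moved with the colony comparisons described next in both lines, and so did the macrophage genes named, each in the line given. The part of these markers in the results was not tested. In bulk RNA, fewer cells of a type and less RNA per cell cannot be told apart.

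RT101 colonies had higher ER folding transcripts and lower CCT and mitochondrial chaperone transcripts than the RT101 monolayer, while cytosolic heat shock genes went both ways. Of the 24 ER genes 12 rose and 5 fell, with a median log2 change of 0.32 (RT101 colonies over the RT101 monolayer). Of the 20 cytosolic and mitochondrial genes 3 rose and 12 fell, with a median of -0.39. In all 32 of the 44 genes were called (72.7%), 15 up and 17 down, with limma and Benjamini-Hochberg adjustment over all genes, at a threshold of 0.05. Among the 12393 genes 32.4% were called, 17% up and 15.4% down, with a median change of -0.01. Chaperone genes are bright, and among the 6197 genes at or above the median signal 51.9% were called, against 31 of the 41 chaperone genes there. Centring each array on its median lowered the share of all RT101 colony calls that were up to 40.1%, against 52.4% as deposited, and the chaperone calls to 13 up and 18 down.

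In bFGF-JB6 colonies the same direction held for ER against other chaperones, with smaller medians. Of the 24 ER genes 11 rose and 1 fell (median 0.12, bFGF-JB6 colonies over the bFGF-JB6 monolayer), and of the 20 cytosolic and mitochondrial genes 4 rose and 8 fell (median -0.20). The 24 called genes were 54.5% of the 44, with 15 up and 9 down, and of all genes 29.4% were called, 14.1% up and 15.3% down. Of the genes at or above the median signal 44.7% were called, against 24 of the 41 chaperone genes there. The median change of all genes was 0.025. Without bFGF-JB6 colonies array 3, an array with raised 3′ signal, the ER median was 0.20. Leaving out each array in turn gave ER medians of 0.089 to 0.20.

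The colony comparisons of the lines share no arrays. The genes called up in both were 7 (Calr, Pdia3, Pdia4, P4hb, Dnajb11, Hspb8 and Dnajb4), against 706 of all genes (5.7%). Those called down in both were 8 (Hspa4, Hsp90aa1, Hsph1, Cct3, Cct4, Cct5, Cct7 and Hspe1), against 646 of all genes (5.21%). The place of Hspa4 among these 8 is uncertain, because its other 2 probe sets were called up in bFGF-JB6 colonies. A further 6 were down in RT101 colonies and up in bFGF-JB6 colonies (Hspa5, Xbp1, Atf6, Herpud1, Sel1l and Hspa9), where all genes gave 197 (1.59%), and 0 of the 44 went the other way, where all genes gave 353 (2.85%). Of these 6, 5 belong to the ER list and 4 of them are its sensors and ERAD genes. The other 23 genes were called in 1 colony comparison or in neither.

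The RT101 monolayer held the extreme level of many of these genes. Of the 20 cytosolic and mitochondrial genes 12 (60%) had their highest group mean there, against 34% of all genes, and of the 24 ER genes 13 (54.2%) had their lowest mean there, against 27.0% of all genes. The RT101 colony comparison and the monolayer comparison share those 2 arrays, and so their values are given side by side and not as separate evidence. On each array the mean of the ER genes minus that of the cytosolic and mitochondrial genes, each gene taken relative to its own mean over the 11 arrays, was 0.15, 0.13 and 0.15 in RT101 colonies, against -0.38 and -0.30 in the RT101 monolayer. It was 0.20, 0.18 and 0.023 in bFGF-JB6 colonies, against -0.13, -0.016 and 0.001 in the bFGF-JB6 monolayer. Colony arrays lay above the monolayer arrays of their line in both lines, although bFGF-JB6 colonies array 3 did so by only a small margin, and this array also had a raised 3′ signal. The other array of raised 3′ signal, bFGF-JB6 monolayer array 1, was the lowest of its group (-0.13).

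**Figure D1:**
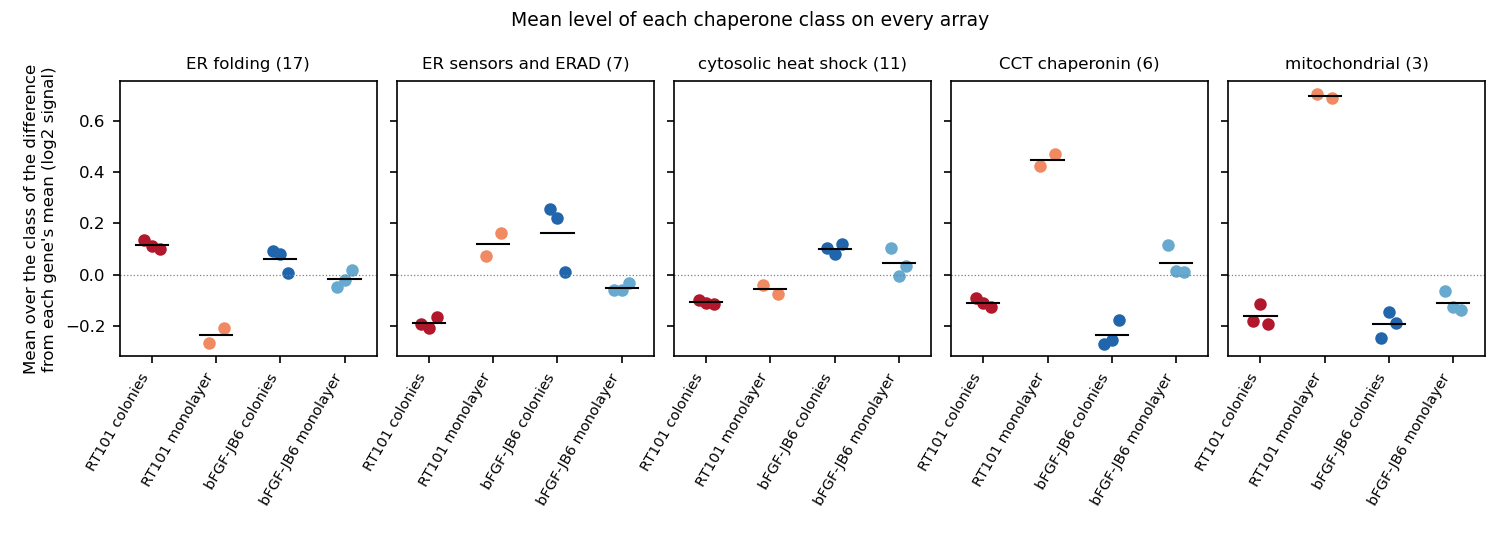
Each point is 1 array, plotted as the mean over a chaperone class of the difference between a gene's log2 signal and its own mean over the 11 arrays; bars are group means. The RT101 monolayer arrays lie at 0.42 and 0.47 for the 6 CCT genes and at 0.71 and 0.69 for the 3 mitochondrial genes, above all other arrays, and at -0.27 and -0.21 for the 17 ER folding genes, below all other arrays.

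**Figure D2:**
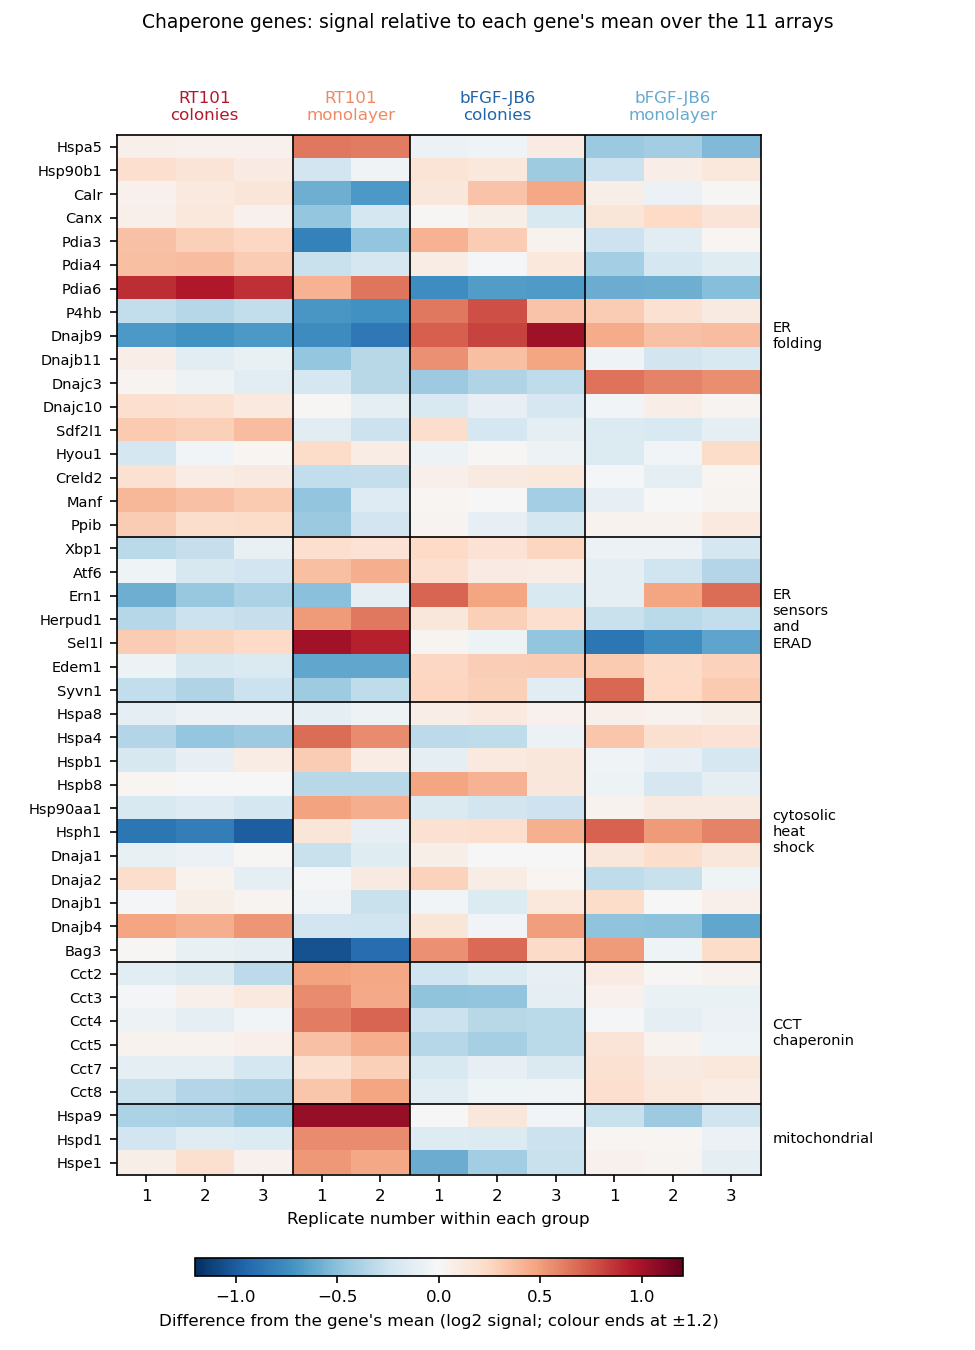
Heat map of the 44 genes (in order of role) on the 11 arrays, coloured by the difference of the log2 signal from the gene's mean, with red above and blue below it. The CCT and mitochondrial genes are red on both RT101 monolayer arrays, where 13 of the 17 ER folding genes are blue.

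The promoter sequences show which genes hold letters that match the elements of each stress response. Windows of 300 bases (250 before to 50 after the annotated start, RefSeq, GRCm38.p6) were held for 37 of the 44 genes. The ER stress response element ERSE, written as CCAAT, 9 bases of any kind and CCACG, was searched on both strands and found in 8 of 21 ER genes (38.1%), 0 of 16 cytosolic and mitochondrial genes and 37 of all 27025 genes (0.137%). Its shorter form ERSE-II, ATTGG, 1 base and CCACG, was found in Dnajb11 and Herpud1 (2 of 21 ER genes, 9.52%) and in 12 of all genes (0.0444%). The element TGACGTGG, read by ATF6 and XBP1, was found in 0 of the 37 chaperone windows and in 193 of all genes (0.714%). The heat shock element, alternating TTC and GAA with 2 bases between them, was found in 3 of 16 cytosolic and mitochondrial genes (18.8%), 0 of 21 ER genes and 179 of all genes (0.662%). A match describes letters and does not show a working site. The sites below are shown because their genes moved in different directions, with 20 bases on each side where the window allows, the element in capitals, 5′ to 3′ along the gene's strand. In Calr and Creld2 the ERSE lies on the opposite strand, and so reads reversed.
Hspa5 (ERSE, chr2:34772005-34772063, plus strand): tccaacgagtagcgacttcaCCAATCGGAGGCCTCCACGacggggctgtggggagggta
Calr (ERSE, chr8:84847055-84847113, minus strand): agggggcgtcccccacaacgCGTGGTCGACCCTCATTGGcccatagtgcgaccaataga
Canx (ERSE, chr11:50325780-50325838, minus strand): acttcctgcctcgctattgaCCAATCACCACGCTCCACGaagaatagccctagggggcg
Pdia6 (ERSE, chr12:17266471-17266529, plus strand): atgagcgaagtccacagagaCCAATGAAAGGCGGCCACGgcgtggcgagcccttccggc
Creld2 (ERSE, chr15:88819500-88819558, plus strand): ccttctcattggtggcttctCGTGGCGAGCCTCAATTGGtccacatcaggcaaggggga
Dnajc3 (ERSE, chr14:118937807-118937865, plus strand): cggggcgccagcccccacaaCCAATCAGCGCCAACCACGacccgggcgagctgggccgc
Dnajb11 (ERSE-II, chr16:22857832-22857882, plus strand): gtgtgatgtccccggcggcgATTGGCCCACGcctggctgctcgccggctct
Herpud1 (ERSE-II, chr8:94386357-94386407, plus strand): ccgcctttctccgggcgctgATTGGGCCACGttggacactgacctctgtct
Hsph1 (heat shock element, chr5:149636268-149636320, minus strand): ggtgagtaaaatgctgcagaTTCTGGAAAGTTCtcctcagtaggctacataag
Hspe1 (heat shock element, chr1:55088039-55088096, plus strand): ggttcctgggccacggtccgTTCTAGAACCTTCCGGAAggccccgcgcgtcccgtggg
The Hspe1 and Hspd1 genes lie head to head and share 285 bases of their windows, so that 1 element stands before both. Of the 8 genes with an ERSE (these 6, Hsp90b1 with 2 sites and Syvn1), Calr, Canx, Pdia6 and Creld2 rose in RT101 colonies, Hspa5 fell and Hsp90b1, Dnajc3 and Syvn1 were not called. In bFGF-JB6 colonies Hspa5 and Calr rose, Dnajc3 fell and the other 5 were not called. Of the ERSE-II genes Dnajb11 rose in both, and Herpud1 fell in RT101 colonies and rose in bFGF-JB6 colonies.

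**Figure D3:**
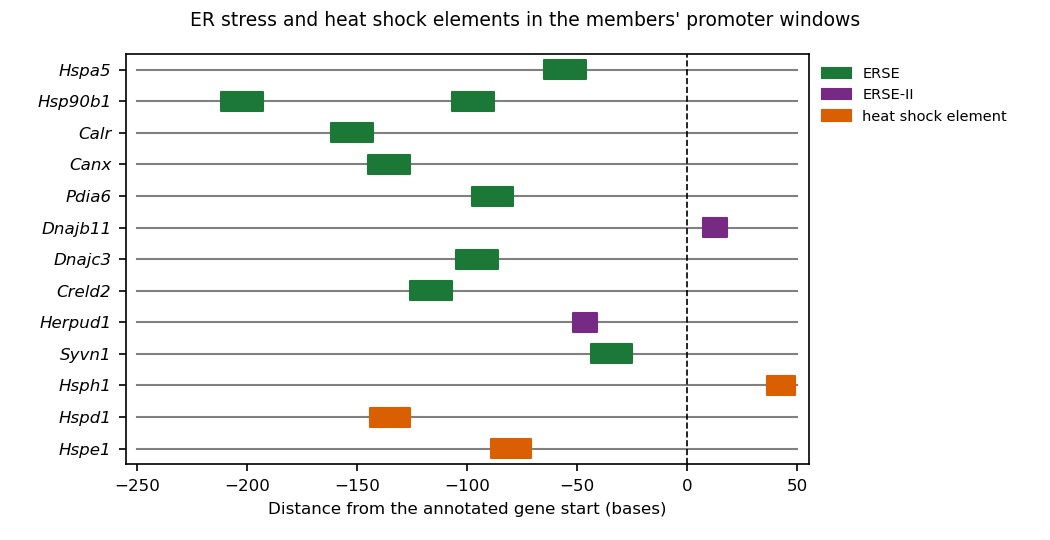
Each line is the promoter window of a gene, drawn as distance in bases from the annotated start (dashed), and each box is a match to ERSE, ERSE-II or the heat shock element. ERSE boxes lie in the 8 ER genes named, 2 of them in Hsp90b1, and heat shock elements in Hsph1, Hspd1 and Hspe1; for Hsph1 the first of its 2 annotated starts is drawn.

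Hspa5, which encodes BiP, the main Hsp70 of the ER, moved in opposite directions in the colonies of both lines. Hspa5 had log2 signals of 11.87, 11.86 and 11.87 in RT101 colonies, against 12.45 and 12.44 in the RT101 monolayer. Hspa5 signals in bFGF-JB6 colonies were 11.74, 11.77 and 11.91, against 11.37, 11.39 and 11.28 in the bFGF-JB6 monolayer. The RT101 monolayer was highest, the bFGF-JB6 monolayer lowest, and the colony groups lay between them and overlapped each other. Its log2 change was -0.58 ± 0.087 (SE, adjusted p = 0.000158) in RT101 colonies and 0.46 ± 0.078 (SE, adjusted p = 0.000533) in bFGF-JB6 colonies, a difference between lines of -1.03 ± 0.12 (SE, adjusted p = 1.68e-05). Between lines it was 2.13-fold higher in the RT101 monolayer than in the bFGF-JB6 monolayer (adjusted p = 1.95e-07), and in colonies the difference was 0.062 ± 0.078 (SE, adjusted p = 0.589). Log2 signals of Hsp90b1 were 10.67, 10.63 and 10.57 in RT101 colonies and 10.24 and 10.43 in the RT101 monolayer. For Hsp90b1 the bFGF-JB6 colonies read 10.64, 10.59 and 10.04 and the bFGF-JB6 monolayer 10.21, 10.55 and 10.60. Hsp90b1 (GRP94), the Hsp90 of the ER, passed in none of the 5 comparisons on its brightest probe set (adjusted p from 0.218 to 0.914), and its groups overlapped, except that RT101 colonies lay above the RT101 monolayer. Its other probe set rose in bFGF-JB6 colonies by 0.27 (adjusted p = 0.0378), where the brightest gave -0.03, and gave 0.26 (adjusted p = 0.0615) in RT101 colonies. Hyou1, a nucleotide exchange factor of BiP, passed in none either, with log2 changes of -0.23 in RT101 colonies and -0.046 in bFGF-JB6 colonies.

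The DnaJ-type partners of BiP did not move together. For Dnajb9, RT101 colonies read 7.69, 7.66 and 7.70 and the RT101 monolayer 7.63 and 7.53 (log2 signal). Dnajb9 in bFGF-JB6 colonies read 9.10, 9.20 and 9.41, and in the bFGF-JB6 monolayer 8.83, 8.74 and 8.76. Dnajb9 (ERdj4), a partner in degradation, was lower on every RT101 array than on every bFGF-JB6 array: RT101 colonies were 2.93-fold lower than bFGF-JB6 colonies (adjusted p = 7.94e-09) and the RT101 monolayer 2.29-fold lower than the bFGF-JB6 monolayer (adjusted p = 2.94e-07). It was not called in RT101 colonies (0.11 ± 0.10 SE, adjusted p = 0.488) and rose by 0.46 ± 0.089 (SE, adjusted p = 0.00141) in bFGF-JB6 colonies. On RT101 colony arrays Dnajb11 read 8.94, 8.73 and 8.77, against 8.39 and 8.52 in the RT101 monolayer (log2 signal). The Dnajb11 values were 9.41, 9.22 and 9.33 in bFGF-JB6 colonies and 8.81, 8.64 and 8.67 in the bFGF-JB6 monolayer. Dnajb11 (ERdj3), which hands unfolded chains to BiP, rose in colonies of both lines, by 0.36 ± 0.10 (SE, adjusted p = 0.0151) in RT101 and 0.61 ± 0.091 (SE, adjusted p = 0.00018) in bFGF-JB6, and no colony array overlapped the monolayer of its line. Dnajc3 had log2 signals of 8.58, 8.48 and 8.42 in RT101 colonies, against 8.33 and 8.21 in the RT101 monolayer. Dnajc3 signals in bFGF-JB6 colonies were 8.10, 8.18 and 8.24, against 9.19, 9.14 and 9.10 in the bFGF-JB6 monolayer. For Dnajc3 (p58IPK), the bFGF-JB6 monolayer lay above all other arrays. Its brightest probe set fell 1.96-fold in bFGF-JB6 colonies (adjusted p = 1.03e-06). The other 4 Dnajc3 probe sets gave -0.067 to 0.13 there and were not called, while 3 of them rose in RT101 colonies by 0.75 to 0.94, where the brightest gave 0.22 ± 0.091 (SE, adjusted p = 0.0825). With its probe sets averaged, the RT101 colony change was 0.61 (adjusted p = 4.47e-05) and the bFGF-JB6 colony change -0.17 (adjusted p = 0.0941). Dnajc10 (ERdj5), a disulfide reductase, was called in the difference between lines (0.40 ± 0.12 SE, adjusted p = 0.0205) and not in either colony comparison (0.22 in RT101 and -0.19 in bFGF-JB6) on its brightest probe set. Both other Dnajc10 probe sets rose in RT101 colonies, by 0.24 (adjusted p = 0.043) and 0.49 (adjusted p = 0.00406). In bFGF-JB6 colonies 1 of them fell (-0.28, adjusted p = 0.0128) and the other gave 0.05 (adjusted p = 0.774). With the 3 averaged the RT101 colony change was 0.32 (adjusted p = 0.00413). The lists of lost calls from here on leave out fits of all arrays with the replicate as a block, which are given at the end. In the RT101 colony comparison, the call was lost for Dnajb11 without RT101 colonies array 1 or RT101 monolayer array 1 (adjusted p 0.0659 to 0.137). In the bFGF-JB6 colony comparison, the call was lost for Dnajc3 with probe sets averaged (adjusted p = 0.0941). In the difference between lines, the call was lost for Dnajc10 without RT101 colonies arrays 1 or 2 or RT101 monolayer array 2 or with median centring (adjusted p 0.0505 to 0.0955). In the comparison of both lines' colonies, the call was lost for Dnajc3 with probe sets averaged (adjusted p = 0.355).

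Sdf2l1, Creld2, Manf and Ppib, small ER-resident proteins whose genes except Ppib are known targets of the unfolded protein response, rose in RT101 colonies and were not called in bFGF-JB6 colonies. Log2 signals of Manf were 10.36, 10.31 and 10.27 in RT101 colonies and 9.48 and 9.81 in the RT101 monolayer. For Manf the bFGF-JB6 colonies read 9.98, 9.97 and 9.56 and the bFGF-JB6 monolayer 9.86, 9.96 and 9.99. For Manf the RT101 colonies lay above all other arrays and the RT101 monolayer reached the lowest value. It rose by 0.67 ± 0.13 (SE, adjusted p = 0.00135) in RT101 colonies, against -0.10 ± 0.12 (SE, adjusted p = 0.578) in bFGF-JB6 colonies, and the difference between lines was 0.77 ± 0.18 (SE, adjusted p = 0.0049). Ppib, a peptidyl-prolyl isomerase, rose by 0.58 ± 0.10 (SE, adjusted p = 0.000455) in RT101 colonies and differed between lines by 0.74 ± 0.14 (SE, adjusted p = 0.000984). Sdf2l1 rose by 0.51 ± 0.12 (SE, adjusted p = 0.00333) and Creld2 by 0.42 ± 0.085 (SE, adjusted p = 0.00162) in RT101 colonies, and for both the difference between lines did not pass (adjusted p = 0.0741 and 0.0849). In the monolayer comparison, the call was lost for Creld2 without RT101 monolayer arrays 1 or 2 or bFGF-JB6 monolayer arrays 1 or 3, with median centring or with only the compared arrays in the fit (adjusted p 0.0536 to 0.122); and for Ppib without RT101 monolayer array 1 (adjusted p = 0.0834). In the comparison of both lines' colonies, the call was lost for Sdf2l1 without bFGF-JB6 colonies array 2 (adjusted p = 0.0567).

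Of the lectin chaperones and disulfide isomerases Calr, Canx, Pdia3, Pdia4, Pdia6 and P4hb, 6 of 6 rose in RT101 colonies. For Calr, RT101 colonies read 11.50, 11.57 and 11.60 and the RT101 monolayer 10.87 and 10.76 (log2 signal). Calr in bFGF-JB6 colonies read 11.59, 11.79 and 11.91, and in the bFGF-JB6 monolayer 11.52, 11.38 and 11.47. Calreticulin (Calr), the soluble lectin, was lowest on both RT101 monolayer arrays, and colonies exceeded the monolayer of their line without overlap. The change was 0.74 ± 0.10 (SE, adjusted p = 8.19e-05) in RT101 colonies and 0.31 ± 0.093 (SE, adjusted p = 0.0234) in bFGF-JB6 colonies. On RT101 colony arrays Pdia3 read 10.96, 10.89 and 10.85, against 9.80 and 10.13 in the RT101 monolayer (log2 signal). The Pdia3 values were 11.02, 10.91 and 10.64 in bFGF-JB6 colonies and 10.36, 10.47 and 10.63 in the bFGF-JB6 monolayer. Pdia3 (ERp57), the isomerase that works with both lectins, rose 1.91-fold in RT101 colonies (log2 0.94 ± 0.13 SE, adjusted p = 8.15e-05) and by 0.37 ± 0.12 (SE, adjusted p = 0.0279) in bFGF-JB6 colonies, where colony array 3 and monolayer array 3 nearly met. Canx (calnexin), the membrane-bound lectin, rose by 0.42 ± 0.10 (SE, adjusted p = 0.00673) in RT101 colonies, against -0.21 ± 0.094 (SE, adjusted p = 0.11) in bFGF-JB6 colonies, and differed between lines by 0.63 ± 0.14 (SE, adjusted p = 0.00389). Of its other 2 probe sets, the dimmest rose in both, by 0.92 (adjusted p = 0.000299) in RT101 and 0.49 (adjusted p = 0.0114) in bFGF-JB6, and the other was called in neither. The difference between lines passed on neither probe set, at 0.43 (adjusted p = 0.129) and 0.80 (adjusted p = 0.172). Pdia4 rose by 0.58 ± 0.098 (SE, adjusted p = 0.000371) in RT101 colonies and by 0.32 ± 0.087 (SE, adjusted p = 0.0138) in bFGF-JB6 colonies. On the mean of its 2 probe sets, 1 of them dim, the RT101 change of Pdia4 was 0.27 (adjusted p = 0.0669).

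On their brightest probe sets, Pdia6 and P4hb separated the lines on every array, in opposite directions. Pdia6 had log2 signals of 10.42, 10.50 and 10.41 in RT101 colonies, against 9.95 and 10.18 in the RT101 monolayer. Pdia6 signals in bFGF-JB6 colonies were 8.79, 8.86 and 8.86, against 8.94, 8.95 and 9.03 in the bFGF-JB6 monolayer. Every RT101 array of Pdia6 (P5) lay above every bFGF-JB6 array. RT101 colonies were 3.04-fold higher than bFGF-JB6 colonies (adjusted p = 2.79e-09), the largest fold of the 44 genes between these groups, and the RT101 monolayer was 2.14-fold higher than the bFGF-JB6 monolayer (adjusted p = 3.53e-07). The other Pdia6 probe set, which is dim, was not called between colonies (-0.22, adjusted p = 0.209) or between monolayers (-0.34, adjusted p = 0.0878). It rose by 0.62 (adjusted p = 0.00598) in RT101 colonies and by 0.51 (adjusted p = 0.0118) in bFGF-JB6 colonies, where the brightest gave 0.37 ± 0.093 (SE, adjusted p = 0.00626) and -0.13 ± 0.083 (SE, adjusted p = 0.263). Log2 signals of P4hb were 11.42, 11.37 and 11.41 in RT101 colonies and 11.02 and 10.98 in the RT101 monolayer. For P4hb the bFGF-JB6 colonies read 12.34, 12.48 and 12.06 and the bFGF-JB6 monolayer 12.02, 11.90 and 11.82. P4hb, the classical isomerase and a subunit of prolyl 4-hydroxylase, ran the other way, with every RT101 array below every bFGF-JB6 array. RT101 colonies were 1.86-fold lower than bFGF-JB6 colonies (adjusted p = 7.77e-06) and the monolayers differed by -0.91 ± 0.12 (SE, adjusted p = 1.79e-05). P4hb rose in colonies of both lines, by 0.40 ± 0.12 (SE, adjusted p = 0.0162) in RT101 and 0.38 ± 0.10 (SE, adjusted p = 0.0128) in bFGF-JB6, with a difference between lines of 0.02 ± 0.16 (SE, adjusted p = 0.944). In the RT101 colony comparison, the call was lost for Canx without RT101 monolayer array 1 (adjusted p = 0.119); and for Pdia4 with probe sets averaged (adjusted p = 0.0669). Pdia6 lost its call there without RT101 monolayer array 1 (adjusted p = 0.113). P4hb lost its call there without RT101 monolayer arrays 1 or 2 or with median centring (adjusted p 0.0539 to 0.09). In the bFGF-JB6 colony comparison, the call was lost for Calr without bFGF-JB6 colonies arrays 2 or 3 or bFGF-JB6 monolayer arrays 2 or 3, with only the compared arrays in the fit or without both arrays of raised 3′ signal (adjusted p 0.0595 to 0.0866); and for Pdia3 without bFGF-JB6 colonies arrays 1 or 2 or bFGF-JB6 monolayer arrays 1 or 2 or with only the compared arrays in the fit (adjusted p 0.0507 to 0.108). Pdia4 lost its call there without bFGF-JB6 monolayer array 1, with only the compared arrays in the fit or without both arrays of raised 3′ signal (adjusted p 0.0515 to 0.0917). P4hb lost its call there without bFGF-JB6 colonies array 2 or bFGF-JB6 monolayer array 3 (adjusted p 0.059 to 0.0591). In the difference between lines, the call was lost for Calr without RT101 colonies arrays 2 or 3, RT101 monolayer arrays 1 or 2, bFGF-JB6 colonies array 1 or bFGF-JB6 monolayer arrays 1 or 3, with median centring or with cyclic loess (adjusted p 0.0534 to 0.122); and for Pdia3 without RT101 colonies arrays 1 or 2, RT101 monolayer array 1 or bFGF-JB6 monolayer array 3, with median centring or with cyclic loess (adjusted p 0.0532 to 0.177). Pdia6 lost its call there without RT101 monolayer array 1 or with probe sets averaged (adjusted p 0.0547 to 0.139). In the monolayer comparison, the call was lost for Pdia3 without RT101 monolayer array 1 (adjusted p = 0.0947). In the comparison of both lines' colonies, the call was lost for Pdia4 without RT101 colonies arrays 1 or 2 or bFGF-JB6 colonies array 2 or with probe sets averaged (adjusted p 0.0524 to 0.208).

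**Figure D4:**
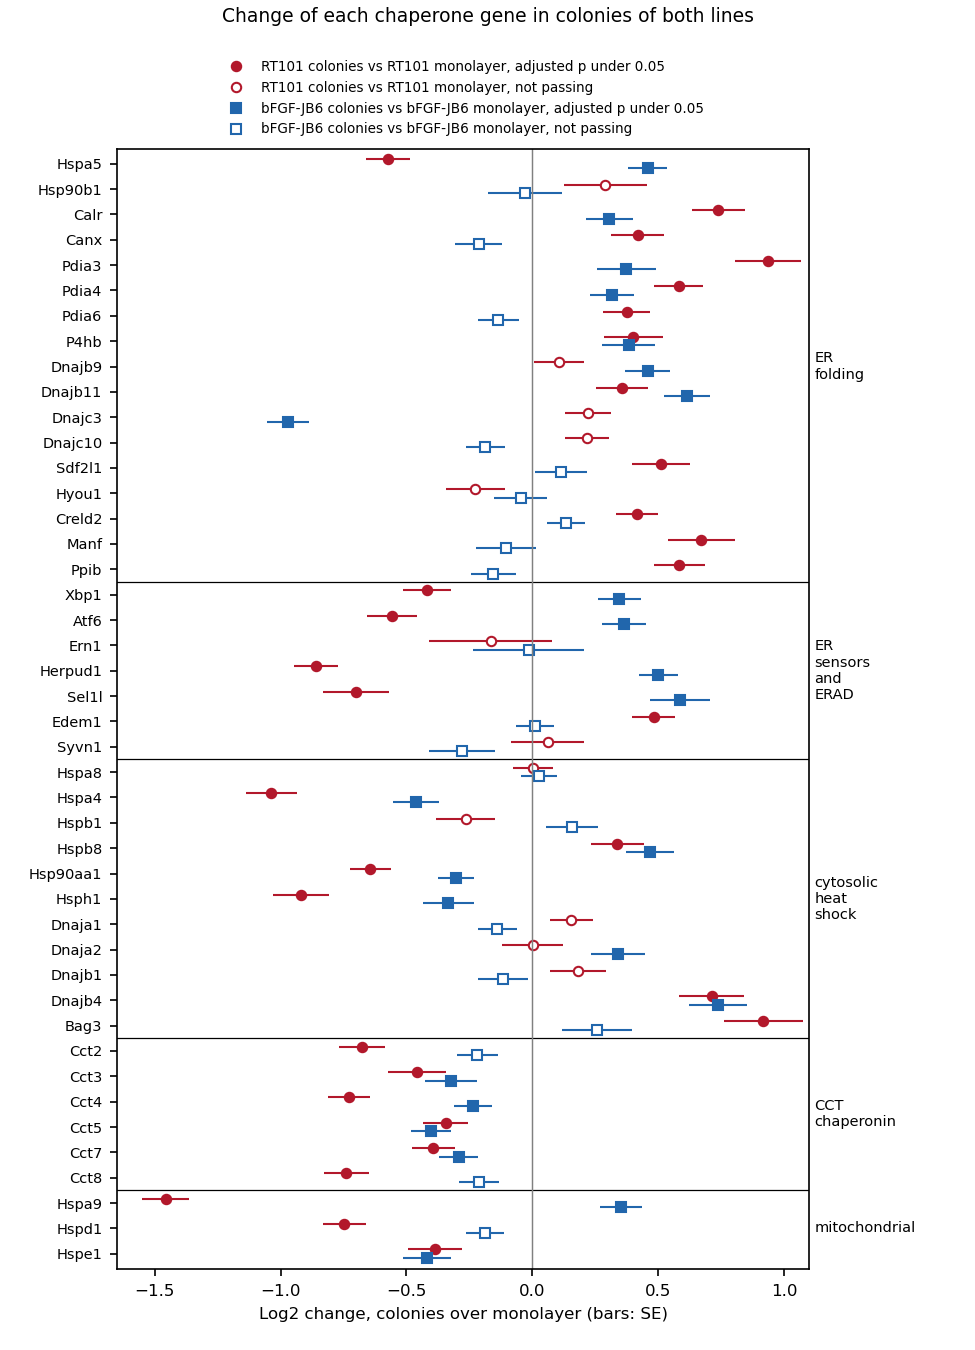
Log2 change of each of the 44 genes in colonies over the monolayer of the same line, for RT101 (circles) and bFGF-JB6 (squares), with bars for SE and filled symbols for an adjusted p under 0.05. The 6 CCT genes lie left of 0 in both lines, while Hspa5, Xbp1, Atf6, Herpud1, Sel1l and Hspa9 lie left of 0 in RT101 and right of 0 in bFGF-JB6.

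The ER stress sensors and ERAD genes ran against the folding genes in RT101 colonies. Of the 7 genes 4 fell and 1 rose there (median -0.42), whereas 4 rose and 0 fell in bFGF-JB6 colonies (median 0.34). For Herpud1, RT101 colonies read 9.26, 9.35 and 9.32 and the RT101 monolayer 10.11 and 10.23 (log2 signal). Herpud1 in bFGF-JB6 colonies read 9.73, 9.89 and 9.80, and in the bFGF-JB6 monolayer 9.33, 9.28 and 9.31. Herpud1, an ER membrane protein of ERAD, was highest on the RT101 monolayer arrays, next on the bFGF-JB6 colony arrays, and overlapped between the other 2 groups. It fell by 0.86 ± 0.088 (SE, adjusted p = 4.46e-06) on the log2 scale in RT101 colonies and rose by 0.50 ± 0.078 (SE, adjusted p = 0.000271) in bFGF-JB6 colonies, a difference between lines of -1.36 ± 0.12 (SE, adjusted p = 1.39e-06). On RT101 colony arrays Sel1l read 8.62, 8.58 and 8.55, against 9.32 and 9.25 in the RT101 monolayer (log2 signal). The Sel1l values were 8.35, 8.26 and 7.85 in bFGF-JB6 colonies and 7.45, 7.57 and 7.68 in the bFGF-JB6 monolayer. For Sel1l, the scaffold of the ERAD ubiquitin ligase, no groups overlapped, and the RT101 monolayer was 3.29-fold above the bFGF-JB6 monolayer (adjusted p = 1.32e-07). Its changes were -0.70 ± 0.13 (SE, adjusted p = 0.000897) in RT101 colonies and 0.59 ± 0.12 (SE, adjusted p = 0.00181) in bFGF-JB6 colonies, with bFGF-JB6 colonies array 3 the lowest of its group. Of the 3 other Sel1l probe sets 1 was called down in RT101 colonies and 2 were called up in bFGF-JB6 colonies, with 0 called the opposite way. Syvn1 (HRD1), the ligase itself, was not called in either colony comparison and was lower in RT101 cells, with log2 differences of -0.78 ± 0.15 (SE, adjusted p = 0.000536) in monolayers and -0.44 ± 0.13 (SE, adjusted p = 0.0146) in colonies. Edem1, a lectin-like ERAD factor, was the 1 gene of the 7 that rose in RT101 colonies (0.48 ± 0.085 SE, adjusted p = 0.000514), and in bFGF-JB6 colonies it gave 0.01 ± 0.076 (SE, adjusted p = 0.943) on its brightest probe set and -0.53 (adjusted p = 0.0136) on its other one.

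Xbp1 had log2 signals of 9.42, 9.46 and 9.65 in RT101 colonies, against 9.94 and 9.92 in the RT101 monolayer. Xbp1 signals in bFGF-JB6 colonies were 9.98, 9.92 and 9.998, against 9.67, 9.67 and 9.53 in the bFGF-JB6 monolayer. Xbp1, the factor whose mRNA IRE1 splices, was lower on the RT101 colony arrays than on all others but bFGF-JB6 monolayer array 3, and the probe set measures the transcript and not its splicing. Its change was -0.42 ± 0.095 (SE, adjusted p = 0.00356) in RT101 colonies and 0.34 ± 0.085 (SE, adjusted p = 0.0073) in bFGF-JB6 colonies. Log2 signals of Atf6 were 6.93, 6.78 and 6.75 in RT101 colonies and 7.34 and 7.41 in the RT101 monolayer. For Atf6 the bFGF-JB6 colonies read 7.18, 7.08 and 7.07 and the bFGF-JB6 monolayer 6.87, 6.74 and 6.63. Atf6, the sensor that is cleaved to a transcription factor, was highest in the RT101 monolayer and changed by -0.56 ± 0.099 (SE, adjusted p = 0.000562) in RT101 colonies and 0.36 ± 0.089 (SE, adjusted p = 0.00662) in bFGF-JB6 colonies. The difference between lines was -0.76 ± 0.13 (SE, adjusted p = 0.0005) for Xbp1 and -0.92 ± 0.13 (SE, adjusted p = 0.000145) for Atf6. For Ern1, RT101 colonies read 5.18, 5.32 and 5.39 and the RT101 monolayer 5.26 and 5.66 (log2 signal). Ern1 in bFGF-JB6 colonies read 6.46, 6.25 and 5.59, and in the bFGF-JB6 monolayer 5.66, 6.24 and 6.44. Ern1 (IRE1) had the largest SD of the 44 genes within a group (0.457 in bFGF-JB6 colonies), overlapped between colonies and monolayers in both lines, and was not called there. RT101 colonies were below bFGF-JB6 colonies (-0.80 ± 0.22 SE, adjusted p = 0.00851), and the monolayer difference of -0.65 ± 0.25 (SE, adjusted p = 0.0456) came with overlapping groups. In the monolayer comparison, the call was lost for Xbp1 without RT101 monolayer arrays 1 or 2 or bFGF-JB6 monolayer array 3 (adjusted p 0.0632 to 0.0854); and for Ern1 without RT101 colonies arrays 1, 2 or 3, RT101 monolayer array 1, bFGF-JB6 colonies array 2 or bFGF-JB6 monolayer arrays 2 or 3 or with median centring (adjusted p 0.0548 to 0.313). In the comparison of both lines' colonies, the call was lost for Atf6 without RT101 colonies arrays 2 or 3 or bFGF-JB6 colonies array 1 (adjusted p 0.0565 to 0.0707); and for Syvn1 without RT101 colonies array 2 or bFGF-JB6 colonies arrays 1 or 2 (adjusted p 0.0503 to 0.0665).

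Of the 11 cytosolic heat shock genes 3 rose and 3 fell in each colony comparison. On RT101 colony arrays Hspa8 read 12.82, 12.86 and 12.86, against 12.82 and 12.87 in the RT101 monolayer (log2 signal). The Hspa8 values were 13.01, 13.05 and 12.98 in bFGF-JB6 colonies and 12.996, 12.97 and 12.996 in the bFGF-JB6 monolayer. Hspa8 (Hsc70), the constitutive Hsp70, was called in none of the 5 comparisons on its brightest probe set, with changes of -0.17 to 0.027 between groups. Of its 3 other probe sets 1 was called up in bFGF-JB6 colonies and 1 was called down in RT101 colonies. A dimmer probe set of Hspa8 differed by -2.93 (adjusted p = 2.14e-09) between RT101 and bFGF-JB6 colonies, while the other 2 were not called there. With the 4 probe sets of Hspa8 averaged the difference was -0.79 (adjusted p = 8.44e-07) between colonies and -0.42 (adjusted p = 0.00053) between monolayers. Hspa4 had log2 signals of 10.10, 9.99 and 10.01 in RT101 colonies, against 11.12 and 11.02 in the RT101 monolayer. Hspa4 signals in bFGF-JB6 colonies were 10.13, 10.14 and 10.38, against 10.78, 10.64 and 10.62 in the bFGF-JB6 monolayer. Hspa4 (Apg-2) and Hsph1 (Hsp105), nucleotide exchange factors of the Hsp110 type, fell in colonies of both lines on their brightest probe sets. Hspa4 fell 2.05-fold in RT101 colonies (adjusted p = 3.08e-06) and by 0.46 in bFGF-JB6 colonies (adjusted p = 0.00154). Its other 2 probe sets disagreed: they rose by 0.54 (adjusted p = 0.000617) and 0.53 (adjusted p = 0.0077) in bFGF-JB6 colonies and gave -0.087 (adjusted p = 0.599) and -0.05 (adjusted p = 0.855) in RT101 colonies, so the direction of Hspa4 is uncertain. With its probe sets averaged the sign turned and the call was lost in bFGF-JB6 colonies, at 0.20 (adjusted p = 0.0864), and between monolayers, at -0.0093 (adjusted p = 0.949), against 0.39 ± 0.10 (SE, adjusted p = 0.00598) on its brightest probe set. Log2 signals of Hsph1 were 9.94, 9.98 and 9.82 in RT101 colonies and 10.95 and 10.72 in the RT101 monolayer. For Hsph1 the bFGF-JB6 colonies read 10.99, 11.01 and 11.24 and the bFGF-JB6 monolayer 11.52, 11.32 and 11.41. Hsph1 was lowest in RT101 colonies and highest in the bFGF-JB6 monolayer. It changed by -0.92 ± 0.11 (SE, adjusted p = 2.25e-05) in RT101 colonies and -0.33 ± 0.10 (SE, adjusted p = 0.0214) in bFGF-JB6 colonies, and RT101 colonies were 2.24-fold below bFGF-JB6 colonies (adjusted p = 4.03e-07). Hsp90aa1, the inducible Hsp90 of the cytosol, fell in colonies by 0.64 in RT101 (adjusted p = 3.3e-05) and by 0.30 in bFGF-JB6 (adjusted p = 0.00615).

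For Bag3, RT101 colonies read 8.33, 8.23 and 8.21 and the RT101 monolayer 7.27 and 7.41 (log2 signal). Bag3 in bFGF-JB6 colonies read 8.87, 9.002 and 8.55, and in the bFGF-JB6 monolayer 8.83, 8.27 and 8.54. Bag3, a co-chaperone of Hsp70 in selective autophagy, was lowest on both RT101 monolayer arrays and spread widely among the bFGF-JB6 arrays, whose groups overlapped. It rose 1.89-fold in RT101 colonies (adjusted p = 0.000392), against 0.26 ± 0.14 (SE, adjusted p = 0.196) in bFGF-JB6 colonies. On RT101 colony arrays Hspb8 read 8.86, 8.83 and 8.84, against 8.51 and 8.51 in the RT101 monolayer (log2 signal). The Hspb8 values were 9.31, 9.25 and 8.97 in bFGF-JB6 colonies and 8.78, 8.63 and 8.73 in the bFGF-JB6 monolayer. Hspb8, a small heat shock protein that works with Bag3, rose by 0.34 ± 0.10 (SE, adjusted p = 0.0235) in RT101 colonies and 0.47 ± 0.094 (SE, adjusted p = 0.00178) in bFGF-JB6 colonies, and colony arrays lay above the monolayer of their line. The other 2 Hspb8 probe sets were not called in either. Dnajb4 had log2 signals of 7.78, 7.75 and 7.84 in RT101 colonies, against 7.08 and 7.07 in the RT101 monolayer. Dnajb4 signals in bFGF-JB6 colonies were 7.46, 7.28 and 7.81, against 6.83, 6.81 and 6.69 in the bFGF-JB6 monolayer. Dnajb4, an Hsp40, rose in colonies of both lines, by 0.71 ± 0.13 (SE, adjusted p = 0.000666) in RT101 and 0.74 ± 0.12 (SE, adjusted p = 0.000269) in bFGF-JB6, with a difference of -0.025 ± 0.17 (SE, adjusted p = 0.938). Dnaja2, another Hsp40, gave 0.0016 ± 0.12 (SE, adjusted p = 0.995) in RT101 colonies and rose by 0.34 ± 0.11 (SE, adjusted p = 0.0291) in bFGF-JB6 colonies. Its other probe set was called in the other line, with a rise of 0.86 (adjusted p = 0.0011) in RT101 colonies and no call in bFGF-JB6 colonies (0.28, adjusted p = 0.178), and with both averaged the RT101 colony change was 0.43 (adjusted p = 0.0147). Hspb1, Dnaja1 and Dnajb1 were not called in either colony comparison on their brightest probe sets, although the second probe set of Dnaja1 rose by 0.88 (adjusted p = 6.05e-05) in RT101 colonies and 0.80 (adjusted p = 6.87e-05) in bFGF-JB6 colonies. With probe sets averaged the RT101 colony change was -0.28 (adjusted p = 0.0258) for Hspb1, 0.52 (adjusted p = 0.00018) for Dnaja1 and 0.31 (adjusted p = 0.0156) for Dnajb1. In the RT101 colony comparison, the call was lost for Hspb8 without RT101 colonies arrays 1, 2 or 3 or RT101 monolayer arrays 1 or 2 or with median centring (adjusted p 0.0544 to 0.104). In the bFGF-JB6 colony comparison, the call was lost for Hsph1 without bFGF-JB6 colonies arrays 1 or 2 or bFGF-JB6 monolayer arrays 1 or 3 (adjusted p 0.0561 to 0.0821); and for Dnaja2 without bFGF-JB6 colonies arrays 1 or 2 or bFGF-JB6 monolayer arrays 1 or 2, with array weights, with only the compared arrays in the fit or without both arrays of raised 3′ signal (adjusted p 0.0507 to 0.107). In the difference between lines, the call was lost for Hsp90aa1 without RT101 colonies arrays 1, 2 or 3, RT101 monolayer arrays 1 or 2, bFGF-JB6 colonies array 1 or bFGF-JB6 monolayer arrays 1, 2 or 3 or with probe sets averaged (adjusted p 0.052 to 0.171); and for Hsph1 without RT101 monolayer array 1 (adjusted p = 0.0668). Bag3 lost its call there without RT101 colonies arrays 1 or 2, RT101 monolayer arrays 1 or 2, bFGF-JB6 colonies array 3 or bFGF-JB6 monolayer arrays 1 or 3 or without both arrays of raised 3′ signal (adjusted p 0.0512 to 0.121). In the monolayer comparison, the call was lost for Hspa4 without RT101 monolayer array 1 (adjusted p = 0.0639); and for Hspb1 without RT101 colonies array 2, RT101 monolayer array 1, bFGF-JB6 colonies array 2 or bFGF-JB6 monolayer arrays 2 or 3, with cyclic loess or with a trended variance (adjusted p 0.0512 to 0.342). In the comparison of both lines' colonies, the call was lost for Hspb8 with probe sets averaged (adjusted p = 0.243).

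All 6 measured subunits of CCT, the cytosolic ring that folds actin and tubulin, fell in RT101 colonies (median -0.57), and 4 of the 6 fell in bFGF-JB6 colonies (median -0.26). Log2 signals of Cct4 were 10.95, 10.89 and 10.98 in RT101 colonies and 11.62 and 11.71 in the RT101 monolayer. For Cct4 the bFGF-JB6 colonies read 10.76, 10.68 and 10.69 and the bFGF-JB6 monolayer 11.003, 10.90 and 10.94. The RT101 monolayer arrays of Cct4 lay above all others and the bFGF-JB6 colonies below all others. Its change was -0.73 ± 0.085 (SE, adjusted p = 1.58e-05) in RT101 colonies and -0.24 ± 0.076 (SE, adjusted p = 0.0315) in bFGF-JB6 colonies. For Cct3, RT101 colonies read 11.002, 11.08 and 11.14 and the RT101 monolayer 11.59 and 11.47 (log2 signal). Cct3 in bFGF-JB6 colonies read 10.53, 10.55 and 10.90, and in the bFGF-JB6 monolayer 11.07, 10.94 and 10.94. Cct3 was highest in the RT101 monolayer and lowest in bFGF-JB6 colonies, 1 array of which came near the bFGF-JB6 monolayer. On RT101 colony arrays Cct5 read 11.51, 11.51 and 11.53, against 11.82 and 11.90 in the RT101 monolayer (log2 signal). The Cct5 values were 11.13, 11.07 and 11.15 in bFGF-JB6 colonies and 11.62, 11.51 and 11.42 in the bFGF-JB6 monolayer. Cct5 was also highest in the RT101 monolayer and lowest in bFGF-JB6 colonies, without overlap between colonies and monolayer in either line. Their RT101 colony changes were -0.46 ± 0.12 (SE, adjusted p = 0.00723) and -0.34 ± 0.089 (SE, adjusted p = 0.00811), and their bFGF-JB6 colony changes -0.32 ± 0.10 (SE, adjusted p = 0.0302) and -0.40 ± 0.079 (SE, adjusted p = 0.00153). Cct2, Cct7 and Cct8 changed by -0.68, -0.39 and -0.74 in RT101 colonies, against -0.22, -0.29 and -0.21 in bFGF-JB6 colonies, where Cct2 and Cct8 did not pass (adjusted p = 0.059 and 0.061). The difference between lines passed for Cct2, Cct4 and Cct8 (-0.46, -0.49 and -0.53). The other Cct8 probe set, which is dim, was called in neither colony comparison, with -0.10 (adjusted p = 0.51) in RT101 and 0.016 (adjusted p = 0.922) in bFGF-JB6. Of the other 5 Cct3 probe sets 3 were called down in RT101 colonies and 0 were called in bFGF-JB6 colonies. Of the other 5 Cct4 probe sets the dimmest rose by 0.52 (adjusted p = 0.00861) in bFGF-JB6 colonies, and the next 2 in brightness after the one given fell by 0.48 (adjusted p = 0.01) and 0.48 (adjusted p = 0.00919). In the RT101 colony comparison, the call was lost for Cct3 without RT101 monolayer array 1 (adjusted p = 0.0751); and for Cct5 without RT101 monolayer array 2 (adjusted p = 0.0761). In the bFGF-JB6 colony comparison, the call was lost for Cct3 without bFGF-JB6 colonies arrays 1 or 2 or bFGF-JB6 monolayer arrays 1, 2 or 3, with probe sets averaged, with cyclic loess or with only the compared arrays in the fit (adjusted p 0.052 to 0.121); and for Cct4 without bFGF-JB6 colonies array 2 or bFGF-JB6 monolayer arrays 1 or 3, with probe sets averaged, with cyclic loess, with only the compared arrays in the fit or without both arrays of raised 3′ signal (adjusted p 0.0769 to 0.106). In the difference between lines, the call was lost for Cct2 with probe sets averaged (adjusted p = 0.0967). In the monolayer comparison, the call was lost for Cct5 without RT101 monolayer array 2 (adjusted p = 0.0587); and for Cct8 without RT101 monolayer array 2 or bFGF-JB6 monolayer arrays 2 or 3, with probe sets averaged or with only the compared arrays in the fit (adjusted p 0.0502 to 0.198). In the comparison of both lines' colonies, the call was lost for Cct4 without RT101 colonies arrays 1 or 3 or bFGF-JB6 colonies array 2, with cyclic loess or with only the compared arrays in the fit (adjusted p 0.0505 to 0.0864); and for Cct8 without RT101 colonies arrays 2 or 3 (adjusted p 0.0561 to 0.0623). With the replicate number as a block among the colony arrays, the Cct4 difference between colonies of the lines did not pass (adjusted p = 0.0564), against 0.23 ± 0.076 (SE, adjusted p = 0.0245) without it.

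The mitochondrial chaperones were highest in the RT101 monolayer and all 3 fell in RT101 colonies (median -0.75). Hspa9 had log2 signals of 10.24, 10.22 and 10.15 in RT101 colonies, against 11.66 and 11.66 in the RT101 monolayer. Hspa9 signals in bFGF-JB6 colonies were 10.62, 10.75 and 10.59, against 10.35, 10.18 and 10.38 in the bFGF-JB6 monolayer. Hspa9 (mortalin), the mitochondrial Hsp70, had the largest colony change of the 44 genes: RT101 colonies were 2.75-fold below the RT101 monolayer (adjusted p = 6.78e-08) without overlap. In bFGF-JB6 colonies it rose by 0.35 ± 0.084 (SE, adjusted p = 0.00598), again without overlap, and the difference between lines was -1.81 ± 0.13 (SE, adjusted p = 2.14e-07). Of the 3 other Hspa9 probe sets 2 were called down in RT101 colonies and 1 was called up in bFGF-JB6 colonies, with 0 called the opposite way. Among them 1 gave -1.37 (adjusted p = 5.35e-07) in RT101 colonies and 0.40 (adjusted p = 0.00355) in bFGF-JB6 colonies. On the mean of the Hspa9 probe sets the bFGF-JB6 colony change was 0.22 (adjusted p = 0.0809). Log2 signals of Hspd1 were 11.72, 11.80 and 11.78 in RT101 colonies and 12.51 and 12.52 in the RT101 monolayer. For Hspd1 the bFGF-JB6 colonies read 11.79, 11.78 and 11.69 and the bFGF-JB6 monolayer 11.97, 11.97 and 11.88. Hspd1 (Hsp60), the mitochondrial chaperonin, changed by -0.75 ± 0.085 (SE, adjusted p = 1.24e-05) in RT101 colonies and -0.19 ± 0.076 (SE, adjusted p = 0.0796) in bFGF-JB6 colonies, and colonies lay below the monolayer of their line without overlap in both. For Hspe1, RT101 colonies read 11.48, 11.61 and 11.47 and the RT101 monolayer 11.93 and 11.88 (log2 signal). Hspe1 in bFGF-JB6 colonies read 10.82, 10.999 and 11.14, and in the bFGF-JB6 monolayer 11.47, 11.45 and 11.30. Hspe1 (Hsp10), its lid, which shares the promoter shown above with Hspd1, fell by 0.39 in RT101 colonies (adjusted p = 0.0121) and by 0.42 in bFGF-JB6 colonies (adjusted p = 0.00434), with no overlap in either line. In the RT101 colony comparison, the call was lost for Hspe1 without RT101 monolayer array 1 (adjusted p = 0.0867). In the bFGF-JB6 colony comparison, the call was lost for Hspa9 with probe sets averaged (adjusted p = 0.0809).

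**Figure D5:**
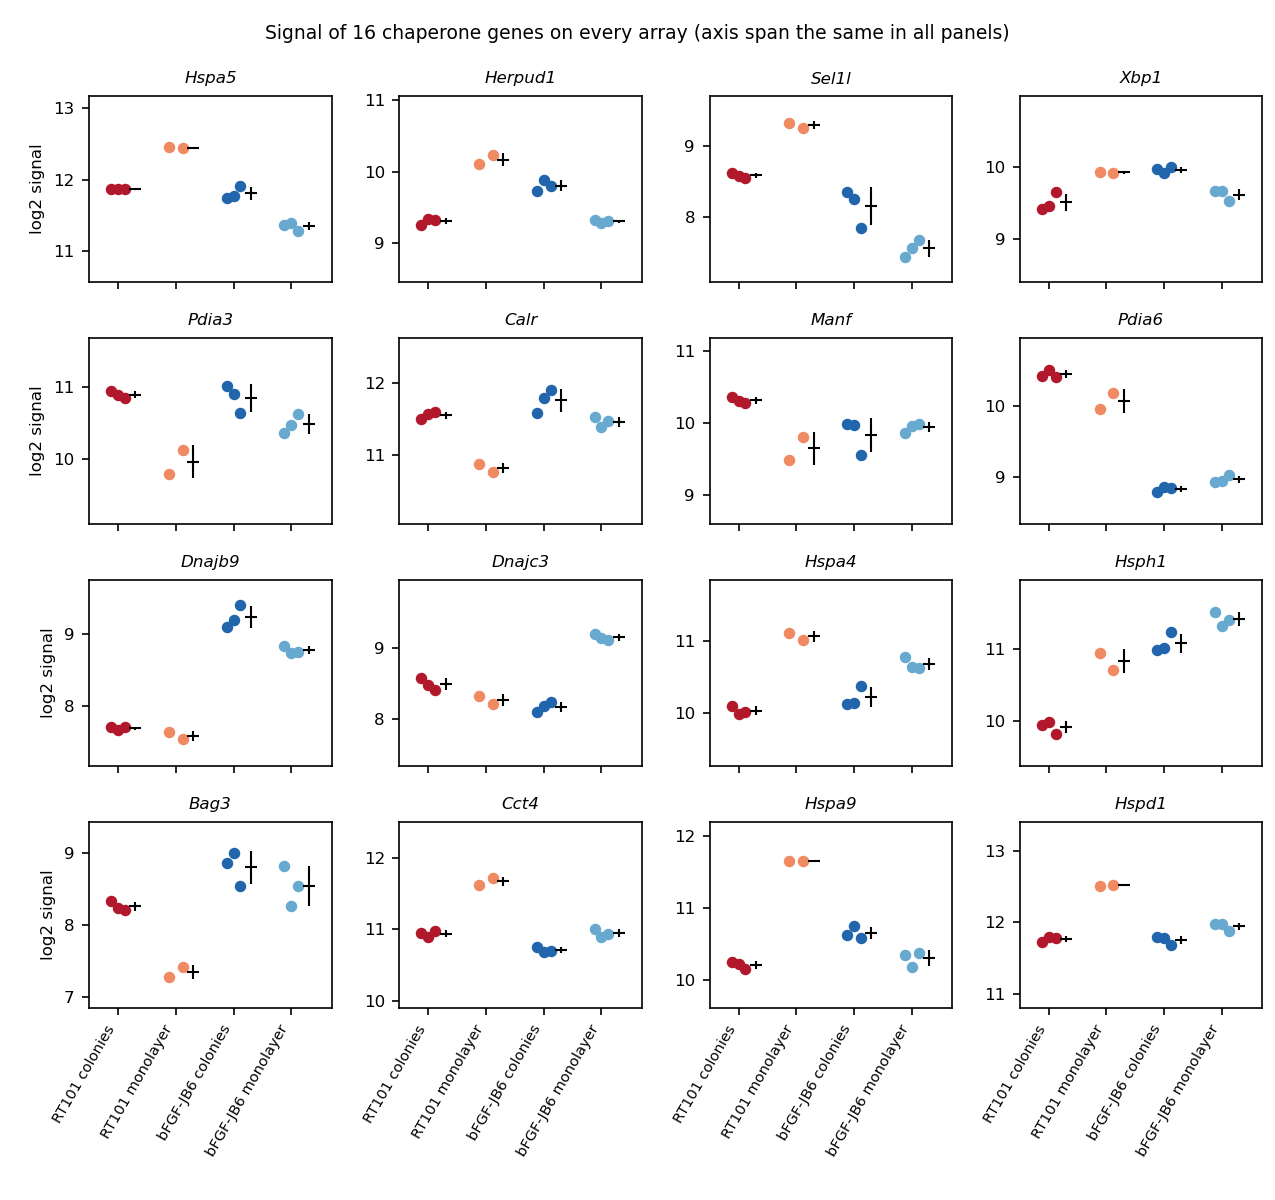
Log2 signal of 16 chaperone genes on every array (points), with the group mean and SD beside them and the same axis span in every panel. Both RT101 monolayer arrays of Hspa9 read 11.66 and no other array exceeds 10.75, while Pdia6 and Dnajb9 separate the lines.

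The tests of whether the colony change differed between lines gave 23 called genes (52.3%), 10 with a higher and 13 with a lower change in RT101, where 27.7% of all genes were called, 15% higher and 12.7% lower. Among genes at or above the median signal 42.4% were called, against 23 of 41 chaperone genes. Of the 24 ER genes 9 were higher and 5 lower (median 0.30), and of the 20 cytosolic and mitochondrial genes 1 was higher and 8 lower (median -0.24). The 1 was Bag3 (0.66 ± 0.21 SE, adjusted p = 0.0303). Centring on the array median changed the split to 7 higher and 15 lower among the chaperone genes, and the share of higher calls among all called genes to 43.5%, against 54.1% as deposited.

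Between monolayers, RT101 against bFGF-JB6, 17 of the 44 genes were higher and 14 lower (31 called, 70.5%). Of all genes 44.4% were called, 23.2% higher and 21.2% lower, and of the genes at or above the median signal 66.5%, against 29 of the 41 chaperone genes there, a share near that of these genes. Of the 17 ER folding genes 2 were higher (Hspa5 and Pdia6) and 8 lower in the RT101 monolayer, and 7 were not called. Of the 6 CCT genes 5 were higher and 0 lower, and of the 3 mitochondrial genes all 3 were higher, among them Hspa9 (2.56-fold, adjusted p = 5.11e-08). Bag3 was 2.31-fold lower in the RT101 monolayer (adjusted p = 2.05e-05). Between colonies 12 were higher and 14 lower in RT101 (26 called, 59.1%), where 43.3% of all genes were called, 22.7% higher and 20.7% lower, and 64.5% of the genes at or above the median signal, against 24 of the 41 chaperone genes there. There the ER sensors and ERAD genes stood lower in RT101 colonies in 6 of 7, with Sel1l the 1 that was higher (0.43 ± 0.12 SE, adjusted p = 0.00825), while 7 ER folding genes were higher and 3 lower. Centring each array on its median gave 19 higher and 12 lower chaperone genes between monolayers and raised the share of higher calls among all called genes to 61.0%, against 52.3% as deposited and 48.3% with cyclic loess. Median changes of all genes were 0.055 between monolayers and 0.0028 between colonies.

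Other genes of the same pathways were counted from lists that do not hold the 44 genes, with up to 4 of the largest called changes named. Their counts stand against 32.4% of all genes called in RT101 colonies and 29.4% in bFGF-JB6 colonies. In the PERK and ATF4 arm of the unfolded protein response, which lowers general translation and raises amino acid supply, 2 of 11 genes rose and 9 fell in RT101 colonies (100% called, median -1.33), against 8 up and 0 down in bFGF-JB6 colonies (72.7% called, median 0.43). In the difference between lines the change was lower in RT101 for 10 of the 11 and higher for 1. Of all genes 27.7% were called in that test, 15% higher and 12.7% lower. In RT101 colonies the largest falls were those of Chac1 (-3.57, adjusted p = 4.45e-11), a glutathione-degrading enzyme, Trib3 (-3.13, adjusted p = 1.43e-11), a pseudokinase, Ppp1r15a (-2.43, adjusted p = 1.71e-09), which restores translation, and Ddit3 (-1.63, adjusted p = 1.01e-07), which encodes CHOP. In bFGF-JB6 colonies the largest rises were those of Nupr1 (1.80, adjusted p = 5.36e-09), Atf4 (0.87, adjusted p = 5.82e-06), the factor of this arm, Ppp1r15a (0.75, adjusted p = 4.95e-05) and Asns (0.58, adjusted p = 5.07e-05), asparagine synthetase. In the monolayer 8 of the 11 were higher and 3 lower in RT101 than in bFGF-JB6, where 44.4% of all genes were called, 23.2% higher and 21.2% lower. Eif2ak3, which encodes PERK and is named after its value was seen, was 1 of the 2 that rose in RT101 colonies, by 1.03 (adjusted p = 1.99e-06).

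Among 22 other ER foldases and quality control genes 6 rose and 3 fell in RT101 colonies (40.9% called), and 11 rose and 2 fell in bFGF-JB6 colonies (59.1% called). Ero1a, the oxidase that supplies disulfide bonds, changed by -1.76 (adjusted p = 5.06e-09) in RT101 colonies and differed between lines by -2.31 (adjusted p = 1.38e-08). Its relative Ero1b rose by 0.95 (adjusted p = 4.2e-05) in bFGF-JB6 colonies. Fkbp7, an ER prolyl isomerase, rose by 0.97 in RT101 colonies and 0.75 in bFGF-JB6 colonies, and Prdx4, an ER peroxiredoxin, rose by 0.89 in RT101 colonies. Of 24 genes of ER translocation and N-glycosylation 7 rose and 2 fell in RT101 colonies, led by Tram1 (0.65), Rpn1 (0.62) and Dad1 (0.53), against 2 up and 5 down in bFGF-JB6 colonies. The called shares, 37.5% and 29.2%, lay near those of all genes. Of 14 other ERAD genes 2 rose and 2 fell in RT101 colonies (28.6% called), and 2 rose and 1 fell in bFGF-JB6 colonies (21.4% called), shares below those of all genes.

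Outside the ER, 22 other cytosolic chaperones and co-chaperones split 6 up and 3 down in RT101 colonies (40.9% called), and 4 up and 3 down in bFGF-JB6 colonies (31.8% called, near the share of all genes). Chordc1, an Hsp90 co-chaperone, changed by -0.96 in RT101 colonies, and Cryab, a small heat shock protein, by 0.93 in bFGF-JB6 colonies. Hspa1b, the stress-inducible Hsp70, was lower in RT101 than in bFGF-JB6 cells in both states, with a log2 difference of -4.88 (adjusted p = 2.39e-11) in colonies and -4.45 (adjusted p = 1.76e-10) in monolayers. Hspa1a, a near-identical copy that could share signal with it, was not called in either, at -0.086 (adjusted p = 0.557) and -0.12 (adjusted p = 0.428). Of 7 further genes of CCT and prefoldin 1 rose and 3 fell in RT101 colonies and 0 rose and 4 fell in bFGF-JB6 colonies (57.1% called in each). The largest called change in RT101 colonies was a rise of Pfdn5 (0.96), which was not called in bFGF-JB6 colonies (-0.28). In bFGF-JB6 colonies it was a fall of Pfdn1 (-0.90), which was not called in RT101 colonies (0.038). The CCT subunits Tcp1 (-0.41 in RT101 and -0.48 in bFGF-JB6) and Cct6a (-0.60 and -0.34) fell in both. Of 10 other mitochondrial chaperones and proteases 1 rose and 5 fell in RT101 colonies (60% called), led by the protease Lonp1 (-1.53) and the Hsp40 Dnaja3 (-0.87), against 1 up and 1 down in bFGF-JB6 colonies (20% called).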

How the data were processed

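Total RNA of 11 samples was hybridised to Affymetrix mouse arrays, 1 per sample. The deposited values are log2 signals per probe set, summarised by RMA per the submitters' processing notes (with no version), and were used as deposited. An array gives no counts or depth, and its number of replicates limits the precision. Of 22690 probe sets 20380 name 1 gene in the platform annotation, 691 several and 1555 none, and 64 are controls. The gene identifiers of 20351 of the 20380 were found in the RefSeq table and those of 29 were not. All kept the annotation's symbol. The probe set with the highest mean signal among those naming 1 gene stood for each of 12393 genes, so that levels of different genes were not compared.

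All 11 arrays entered 1 fit over the 4 groups with limma 3.58.1 (R 4.3.3, lmFit, contrasts, eBayes), giving 5 comparisons with Benjamini-Hochberg adjustment over all genes and a call at an adjusted p of 0.05. Tables and figures were made with Python 3.11.15 and matplotlib 3.10.9. Other probe sets of a gene were fitted in a second run, with adjustment over all probe sets tested. The chaperone genes and the other lists were chosen with earlier results of these data known. Values on every array were given for the 5 called ER genes and the 5 called cytosolic or mitochondrial genes of largest change in each comparison, and always for Hspa5, Hsp90b1, Xbp1, Hspa8 and Hspd1; from each context list up to 4 called genes were named. Same-numbered RT101 and bFGF-JB6 colony arrays deviated together (correlations of deviations 0.32, 0.111 and 0.225), so these colonies were also fitted in pairs; the pairing comes from the data and not from a label that states it. Alternatives were other scalings, probe sets, filters, blocks and each array left out. On simulated data with 12393 genes the fit recovered 63 of 100 genes changed by a log2 of 0.5 and 98 of 100 changed by 1 in the RT101 colony comparison, and 74 of 100 and 99 of 100 in the bFGF-JB6 colony comparison. False calls numbered 11 and 9. The simulated noise was independent between genes, and far fewer genes were changed than were called in the data. These shares therefore do not give the sensitivity of the fit on the data. Promoter windows came from RefSeq (GRCm38.p6). Fkbp10, Hsp90ab1 and Hsf1 were not analysed here.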

Additional observations from a re-analysis of the deposited data

Results flagged for a closer look

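For 23 of the 44 chaperone genes the change in colonies differed between the lines, by the test of the difference itself over 12393 genes (RT101 colony change minus bFGF-JB6 colony change, log2, limma, adjusted p under 0.05). The difference was positive for the 10 genes Dnajc3 (1.19), Manf (0.77), Ppib (0.74), Bag3 (0.66), Canx (0.63), Pdia3 (0.56), Pdia6 (0.51), Edem1 (0.47), Calr (0.43) and Dnajc10 (0.40). It was negative for the 13 genes Hspa9 (-1.81), Herpud1 (-1.36), Sel1l (-1.29), Hspa5 (-1.03), Atf6 (-0.92), Xbp1 (-0.76), Hsph1 (-0.58), Hspa4 (-0.57), Hspd1 (-0.56), Cct8 (-0.53), Cct4 (-0.49), Cct2 (-0.46) and Hsp90aa1 (-0.34). Of these 23, 6 moved in opposite called directions in the lines: Hspa5, Xbp1, Atf6, Herpud1, Sel1l and Hspa9. The difference for Dnajc3 rests in part on a fall of its brightest probe set in bFGF-JB6 colonies that its other probe sets did not show. With 2 arrays in the RT101 monolayer, each difference rests on that pair.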

How the results depend on the processing

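Of the called genes, 23 of 32 kept their call under every alternative in the RT101 colony comparison, 13 of 24 in the bFGF-JB6 colony comparison, 15 of 23 in the difference between lines, 22 of 31 between monolayers and 18 of 26 between colonies. The median log2 changes of the 2 classes kept their sign in both colony comparisons, their difference and the monolayer comparison, and in the last comparison, where they are near 0, they did not. With each gene's probe sets averaged, the medians of cytosolic and mitochondrial genes were -0.35 in RT101 colonies, -0.13 in bFGF-JB6 colonies, -0.20 in the difference, 0.18 between monolayers and 0.028 between colonies, and those of ER genes 0.22 in the difference and -0.039 between colonies. That setting also turned the sign for Edem1 (-0.26), Hspa4 (0.20) and Dnaja1 (0.33) in bFGF-JB6 colonies and for Hspa4 (-0.0093) and Dnaja2 (-0.46) between monolayers; the probe sets of these genes differ. With genes at or above the median signal only, the ER median was 0.22 in bFGF-JB6 colonies and the cytosolic and mitochondrial median -0.13 in the difference. With median centring the ER medians were 0.23 in RT101 colonies, 0.22 in the difference and -0.16 between monolayers, and the others -0.48, -0.32 and 0.39. With cyclic loess the cytosolic and mitochondrial medians were -0.43 in RT101 colonies, -0.15 in bFGF-JB6 colonies, -0.29 in the difference, 0.27 between monolayers and -0.11 between colonies, where the ER median was -0.018. Without the 2 arrays of raised 3′ signal, a setting chosen after seeing the data, the cytosolic and mitochondrial medians were -0.17 in bFGF-JB6 colonies, -0.30 in the difference and 0.34 between monolayers, with an ER median of -0.021 between colonies. Leaving out each array gave ER medians of 0.28 to 0.38 in RT101 colonies, 0.089 to 0.20 in bFGF-JB6 colonies, 0.25 to 0.31 in the difference, -0.28 to -0.16 between monolayers and -0.021 to 0.049 between colonies. The cytosolic and mitochondrial medians were -0.42 to -0.36, -0.22 to -0.18, -0.30 to -0.21, 0.28 to 0.34 and -0.058 to 0.0025 in the same order. The cause of these shifts was not tested. With the replicate number as a block the chaperone genes called were 32, 23, 21, 27 and 26 in the same order, against 32, 24, 23, 31 and 26 without it. The lost calls were Cct4 in bFGF-JB6 colonies, Calr and Hsp90aa1 in the difference, and Creld2, Ern1, Hspb1 and Cct8 between monolayers. The sample descriptions also letter the arrays, and RT101 monolayer arrays 1 and 2 are B and C there. With the letter as a block Pdia3 and Bag3 lost their calls in the difference, and Ern1 and Hspb1 between monolayers. By number or letter, pairs other than the colonies of both lines correlated at -0.253 to 0.174, so neither was taken to pair those arrays. With the replicate number as a block on colony arrays alone 25 genes were called between colonies, and Cct4 was the 1 lost.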
